A study of Mus musculus with 11 samples.

Results

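The spots described here were the 347 Glul-rich spots of 3 uninjured mouse liver sections. Glul marks the hepatocytes that border the central vein. The spots were chosen by a measured value, the Glul UMIs per 10000 UMIs of each spot: within each section, the top 5% of the passing spots. A UMI is a molecular tag that counts captured RNA molecules. The comparison group was the 1767 Cyp2e1-rich spots, selected on Cyp2e1 as the remaining spots in the top 30% of their section by Cyp2e1 UMIs per 10000. Sections 2, 3 and 4 held 97, 134 and 116 Glul-rich spots among 1937, 2690 and 2329 passing spots, or 347 of 6956. The whole series held 25136 passing spots in 11 sections.

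Gene expression was measured with Visium slides, on which a grid of barcoded spots captures RNA from a frozen section and each spot covers several cells. The series holds 3 uninjured sections (0 h), which carry every test here, and 8 sections taken after acetaminophen (APAP), a drug that kills hepatocytes around the central vein: 2 at 24 h, 2 at 36 h and 4 at 48 h. The labels give no strain, sex or age for any section and no treatment for the uninjured ones. For all mice, the study's methods give an age range, and male sex unless a figure legend says otherwise. The study's methods describe fasting before APAP and do not state it for uninjured mice. Those methods speak of 1 mouse liver at each time, so the p-values here may reflect no more than the variation among sections cut from the same liver.

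In the liver lobule, blood flows from the portal tract to the central vein, and hepatocytes along this path divide metabolic tasks between them. Portal hepatocytes turn ammonia into urea. The thin layer of hepatocytes at the central vein instead carries glutamine synthetase, encoded by Glul, which captures the ammonia that escapes the urea cycle, while a wider central zone carries the drug-metabolising enzyme Cyp2e1. Wnt ligands and R-spondin 3 from the endothelium of the central vein are known to maintain the central programme. The comparison asks which genes set the Glul-rich spots apart from other central spots.

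Glul and Cyp2e1 values of the classes are given as a description and without a test. The rule itself makes Glul highest in the Glul-rich spots, so these values are no check of their label. The lowest Glul value inside the class was 8.65, 8.12 and 8.36 UMIs per 10000 in sections 2, 3 and 4, and the highest outside it was 8.60, 8.07 and 8.32, so no gap separated the class from the next spots. In these spots the median was 12.9, 12.7 and 13.5 Glul UMIs per 10000, in Cyp2e1-rich spots it was 2.01, 1.92 and 1.85, and in the remaining spots it was 0.958, 1.003 and 0.783. As raw counts, the fewest Glul UMIs in a Glul-rich spot were 4, 5 and 2, and the median was 33, 24.5 and 16.5. The lowest Cyp2e1 value in the top 30% was 28.3, 23.9 and 20.2 UMIs per 10000. Median Cyp2e1 itself was 49.4, 43.8 and 34.4 per 10000 in Glul-rich spots and 36.1, 33.5 and 27.0 in Cyp2e1-rich spots. Of the Glul-rich spots, 94, 128 and 98 also lay in the top 30% by Cyp2e1.

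Glul-rich spots were scattered over each section in small patches. They formed 54, 78 and 71 patches of touching spots in sections 2, 3 and 4, of which 34, 52 and 42 were single spots, and the largest held 10, 8 and 7 spots. Of all grid neighbours of a Glul-rich spot, 18.5%, 17.1% and 15.9% were Glul-rich themselves, against 5.01%, 4.98% and 4.98% of all spots. Cyp2e1-rich spots made up 54.1%, 53.2% and 50.5% of these neighbours and 25.1%, 25.2% and 25.8% of all spots. No passing spot lay more than 9, 8 and 9 grid steps from a Glul-rich spot.

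**Figure D1:**
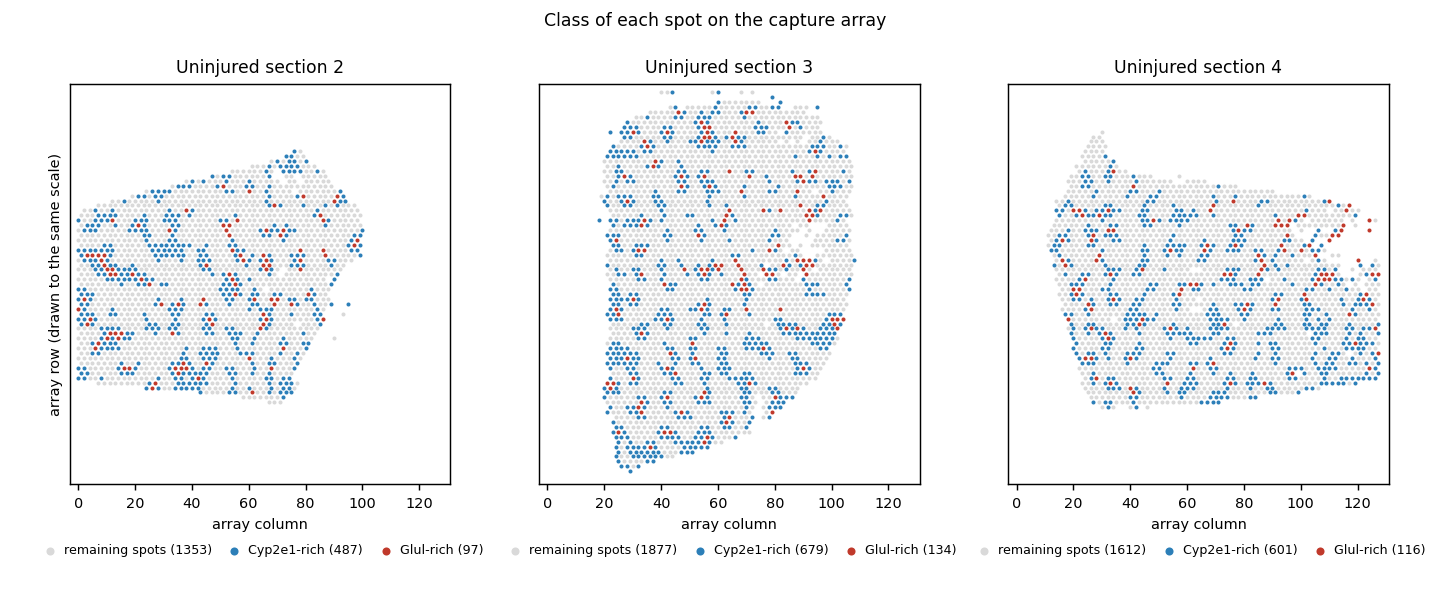
Position of every passing spot on the capture grid of the 3 uninjured sections (axes: array column and array row, all panels on 1 scale), coloured by class, with remaining spots in grey and the number of spots under each panel. Glul-rich spots (red; 97, 134 and 116) lie singly or in small patches, mostly inside or beside groups of Cyp2e1-rich spots (blue).

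Depth and mitochondrial share moved with the classes. Median UMIs per spot were 28588, 18105.5 and 13416 in Glul-rich spots and 32451, 30018 and 19716 in Cyp2e1-rich spots. Glul-rich spots had a median mitochondrial share of 6.59%, 8.25% and 8.27%, against 5.30%, 4.81% and 4.76% in Cyp2e1-rich spots. The part of either in the results below was not tested, and a repeat on spots of at least 10000 UMIs is given further on. UMI counts were summed per section and class before any test, because the section and not the spot is the replicate. The Glul-rich sums held 2621243, 2856152 and 1692213 UMIs and the Cyp2e1-rich sums 14800852, 18993001 and 11657026, so low genes are known less precisely in the Glul-rich class.

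Of 10916 genes tested, 905 differed between the classes at an adjusted p under 0.05 (8.29%). Of these, 422 were higher (3.87%) and 483 lower (4.42%) in Glul-rich spots. These shares of all genes tested are the background for every count of called genes in a list below. The lists were chosen with earlier results of these data known, so their counts are descriptions and not independent evidence. The adjusted p came from edgeR's quasi-likelihood test with section as a block and Benjamini-Hochberg adjustment over all genes tested, and Glul and Cyp2e1 were left out. The standard error (SE) given with a log2 fold change was worked back from the test statistic and is not the spread of 3 section ratios. The fit left 2 residual degrees of freedom, against a median of 48.2 borrowed from the spread of other genes. Very small p-values therefore rest mostly on that borrowed spread. The higher genes differed by more: 101 of them were at least 2-fold higher, whereas 17 genes were at least 2-fold lower, and the median log2 fold change was 0.52 for the genes called higher and -0.26 for those called lower. The direction was the same in all 3 sections for 414 of the 422 and 479 of the 483 genes. Mean levels in the remaining spots also lay above those in Cyp2e1-rich spots for 102 of the 422 higher genes. For 118 of the 483 lower genes the remaining spots were no higher than the Cyp2e1-rich spots. Scaling by total counts alone instead of TMM shifted the median of all genes from 0.0049 to 0.061 on the log2 scale and split the calls into 688 higher and 308 lower, or 69.1% higher against 46.6%. Without the section block 116 genes were called, and 466 were called when classes and sums came from separate UMIs of each spot.

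The largest change among genes of ammonia and glutamate metabolism was in Slc1a2, which encodes the glutamate transporter GLT-1 (chr2:102658659-102790784, plus strand, mm10). Slc1a2 lay at 231, 243 and 243 CPM in the Glul-rich sums of sections 2, 3 and 4 and at 51.6, 46.2 and 52.5 CPM in the Cyp2e1-rich sums, where CPM is UMIs per 1000000 of the TMM-scaled sum. All Glul-rich values lay above all Cyp2e1-rich values, with a log2 fold change of 2.27 ± 0.053 (SE, n = 3 sections; edgeR adjusted p = 2.01e-37). Oat encodes ornithine aminotransferase, which feeds ornithine into glutamate (chr7:132557478-132576398, minus strand). Its levels were 1129, 1001 and 992 CPM against 418, 379 and 339 CPM, again without overlap, with a log2 fold change of 1.45 ± 0.028 (edgeR adjusted p = 2.35e-41). Rhbg, an ammonium transporter, lay at 37.5, 40.8 and 36.1 CPM in Glul-rich spots and at 12.6, 8.32 and 13.0 CPM in Cyp2e1-rich spots, with a log2 fold change of 1.81 ± 0.13. Slc1a4, a neutral amino acid transporter, was higher by 1.29 and Aldh4a1, which makes glutamate from a proline breakdown product, by 0.15 on the log2 scale.

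Other genes of the same list did not move together. Of 10 genes tested for glutamate, ornithine and ammonia handling, the 5 above were higher, 3 were lower and 2 did not pass the test, with a median log2 fold change of 0.10 beside 0.0049 over all genes tested. The glutamine importer Slc38a3 was lower by -0.28, the aspartate aminotransferase Got1 by -0.49 and the glutaminase Gls2, which releases ammonia from glutamine, by -0.27. Glud1 (glutamate dehydrogenase) and Got2 (mitochondrial aspartate aminotransferase) gave log2 fold changes of 0.05 and -0.07 and did not pass the test.

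The urea cycle was lower in Glul-rich spots. Cps1, the entry enzyme of the cycle (chr1:67123026-67231259, plus strand), lay at 781, 784 and 725 CPM in Glul-rich spots and at 1335, 1437 and 1331 CPM in Cyp2e1-rich spots. The groups did not overlap, and the log2 fold change was -0.84 ± 0.027 (SE, n = 3 sections; edgeR adjusted p = 4.23e-31). Of 7 genes tested, 6 were lower, beside 4.42% of all genes tested, and none was higher, with a median of -0.40. Ass1 (argininosuccinate synthase) was lower by -0.58, Arg1 (arginase) by -0.55, Asl (argininosuccinate lyase) by -0.40, Otc (ornithine transcarbamylase) by -0.31 and the ornithine carrier Slc25a15 by -0.14. Nags, which makes the activator of Cps1, gave -0.10 and did not pass the test. At the level of spots, median Cps1 was 7.91, 7.54 and 7.25 UMIs per 10000 in Glul-rich spots and 12.4, 13.8 and 12.2 in Cyp2e1-rich spots. Cps1 was thus lower by less than 2-fold and present in nearly all Glul-rich spots, with at least 1 UMI in 97 of 97, 134 of 134 and 112 of 116.

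Of 20 genes listed as Wnt targets or as innermost central genes, all were tested, 14 were higher and none was lower, with a median log2 fold change of 0.81. The list joins genes of the Wnt pathway with enzymes and transporters of the innermost zone, and shares Slc1a2, Oat and Rhbg with the ammonia genes. Among the classical targets, Axin2 lay at 6.37, 7.20 and 8.14 CPM in Glul-rich spots against 3.05, 3.98 and 3.64 CPM, and Lgr5, a receptor of R-spondins, at 10.9, 7.88 and 8.72 CPM against 4.02, 3.92 and 4.35 CPM. Both rose without overlap, by 0.998 ± 0.24 and 1.17 ± 0.22 on the log2 scale. The transcription factor genes Sp5 and Tbx3 were higher by 1.91 and 1.08, and the feedback inhibitors Nkd1 and Rnf43 by 1.17 and 0.96. The inhibitors Notum and Znrf3 gave 0.05 and 0.08, and Tcf7, Ccnd1, Cldn2 and Avpr1a also did not pass the test. Notum lay at 38.2, 36.0 and 36.1 CPM in Glul-rich spots and at 37.2, 35.5 and 32.8 CPM in Cyp2e1-rich spots, so that the groups overlapped.

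Promoters were read for the letters CTTTGA on either strand, the core to which TCF and LEF factors, the DNA-binding partners of Wnt signalling, are known to bind. RefSeq promoters (GRCm38.p6, 250 bases before to 50 after the start) were held for 12 of the 20 genes, and 4 of these 12 genes had the letters, against 14.5% of tested genes with a promoter. The share was 17.6% among genes called higher and 20.1% among genes called lower, so the letters were not more frequent on the higher side. Of the 15 named higher genes below, 8 had a promoter and 1 a match. Of all genes with a promoter of this length, 18.2% had the letters. The promoters of Slc1a2 (chr2:102706188-102706487) and Sp5 (chr2:70474673-70474972), both on the plus strand, are shown because each belongs to a gene with one of the largest changes of the list and holds 2 matches, in capitals. The Slc1a2 window lies at a RefSeq start inside the gene interval given above. A match describes the letters and is not a binding site by itself.
Slc1a2: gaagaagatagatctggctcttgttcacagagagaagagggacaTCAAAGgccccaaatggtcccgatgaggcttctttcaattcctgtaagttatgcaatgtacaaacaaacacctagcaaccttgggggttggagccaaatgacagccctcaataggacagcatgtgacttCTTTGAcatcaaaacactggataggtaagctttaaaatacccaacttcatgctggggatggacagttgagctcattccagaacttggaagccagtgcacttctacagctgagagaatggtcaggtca
Sp5: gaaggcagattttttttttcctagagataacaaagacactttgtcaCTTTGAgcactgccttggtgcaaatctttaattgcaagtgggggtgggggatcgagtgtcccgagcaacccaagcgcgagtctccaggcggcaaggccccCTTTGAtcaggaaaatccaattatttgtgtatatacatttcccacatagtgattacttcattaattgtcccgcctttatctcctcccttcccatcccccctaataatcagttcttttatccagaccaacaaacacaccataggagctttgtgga

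Transcripts of vein endothelium were higher. Of all named genes, Vwf, the von Willebrand factor of large-vessel endothelium (chr6:125546774-125686679, plus strand), changed the most. It lay at 27.0, 31.2 and 34.3 CPM in Glul-rich spots and at 4.51, 3.34 and 3.82 CPM in Cyp2e1-rich spots, a log2 fold change of 2.98 ± 0.16 (SE, n = 3 sections; edgeR adjusted p = 5.73e-22) from 222 and 171 UMIs in all. Rspo3, the gene of the Wnt enhancer R-spondin 3, lay at 27.0, 17.8 and 22.7 CPM against 7.35, 5.94 and 6.74 CPM, with a log2 fold change of 1.74 ± 0.15. All 6 genes listed for central vein endothelium were higher, with a median of 1.37. Among these 6, the Wnt ligand genes Wnt9b and Wnt2 were higher by 2.47 ± 0.39 and 0.93 ± 0.16, Cdh13 (a cadherin) by 1.71, Thbd (thrombomodulin) by 1.03 and the receptor gene Kit by 0.71. Wnt9b rested on low values, 5.24, 3.43 and 4.65 CPM against 0.416, 0.689 and 1.42 CPM. The summed level of the 6 markers was 54.8 to 83.5 CPM in Glul-rich spots and 26.4 to 33.0 CPM in Cyp2e1-rich spots.

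Smooth muscle and fibroblast genes mostly showed the same direction, and most general endothelial genes did not pass the test. Of 7 general endothelial genes, Pecam1 and Eng were higher by 0.58 and 0.57, none was lower and 5 did not pass the test. The median of the 7 was -0.01. Among the 5 were Kdr and Stab2, which mark sinusoidal endothelium, at -0.01 and -0.17. The 7 general endothelial genes summed to 252 to 293 CPM in Glul-rich spots and 220 to 254 CPM in Cyp2e1-rich spots. Of 7 smooth muscle and fibroblast genes tested, 5 were higher, among them the collagen gene Col3a1 by 0.94 and the muscle gene Tagln by 0.997, whereas Acta2 and Myh11 were too low to be tested. Their summed level was 312 to 348 CPM against 225 to 270 CPM. This count fell to 1 gene when classes and sums came from separate UMIs, to 2 without section 2 and to 3 without section 4. Phagocyte genes went the other way: 5 of 8 were lower and none higher, with a median of -0.53 and a summed level of 276 to 333 CPM against 423 to 458 CPM. Clec4f and Cd5l, both of Kupffer cells, were lower by -0.56 and -0.69.

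The part of vessel-wall cells in the hepatocyte results was not tested. Of the cholangiocyte genes, Epcam, Krt19, Krt7 and Sox9 were too low to be tested, and Krt8 and Cdh1, keratin and cadherin genes that hepatocytes also express, gave 0.10 and -0.42 and did not pass the test. That list summed to 182 to 231 CPM in Glul-rich spots and 176 to 213 CPM in Cyp2e1-rich spots, most of it Krt8. Lymphocyte genes summed to at most 2.06 CPM in Glul-rich spots and 1.59 CPM in Cyp2e1-rich spots, with 1 tested and not called. None of the 3 tested genes of 8 cell cycle genes was called. Haemoglobin transcripts followed a single section. Hbb-bs lay at 791 CPM in the Glul-rich sum of section 3 and at 20.6 and 25.6 CPM in sections 2 and 4, and of the 4 haemoglobin genes Hba-a1 and Hbb-bt were called higher. Without section 3 neither was called higher and 1 of the 4 was called lower, and the median of the list across alternatives ran from -0.53 to 0.76. Mitochondrially encoded genes were called higher in 9 of 12 cases, by at most 0.36 on the log2 scale, beside the higher mitochondrial share given above. They summed to 44295 to 59729 CPM in Glul-rich spots and 41467 to 54980 CPM in Cyp2e1-rich spots. The remaining spots held 43409 to 65012 CPM, so the calls describe the contrast with Cyp2e1-rich spots only. On spots of at least 10000 UMIs 4 of these 12 were higher and 1 was lower, and none was called with classes from spots thinned to 5000 UMIs.

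The 15 most changed genes in each direction, among those with at least 10 CPM on average and the same direction in all sections, are shown in the plot of named genes. On the higher side, besides Vwf, Slc1a2, Rhbg, Rspo3, Oat and Tbx3, they held Slc13a3, a dicarboxylate transporter (log2 fold change 2.02), the fatty acid binding protein gene Fabp4 (1.73), the junction protein gene Jam2 (1.72) and Cyp2a5, a cytochrome P450 (1.70). The others were Cib2 (1.67), Adgrv1 (1.55), the retinol dehydrogenase gene Rdh9 (1.45), Igfbp3, an insulin-like growth factor binding protein (1.33), and the phosphatase gene Lhpp (1.19). Mean Igfbp3 was 22.4 CPM in Glul-rich, 9.22 CPM in Cyp2e1-rich and 16.0 CPM in the remaining spots. Cyp2a5 varied between sections, with 558, 440 and 230 CPM in Glul-rich spots and 199, 125 and 57.9 CPM in Cyp2e1-rich spots. Its edgeR adjusted p was 0.00908, and its call was lost with classes from spots thinned to 5000 UMIs. It has close relatives in the genome, so part of its reads may belong to them. Adgrv1 lay at 8.62, 18.2 and 22.7 CPM against 4.16, 5.19 and 7.63 CPM, so the sections of each class were far apart but the classes did not overlap.

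On the lower side, the named genes showed smaller changes. Besides Cps1 they were led by Enho, which encodes the secreted peptide adropin, at 28.1, 21.3 and 39.0 CPM against 56.4, 36.8 and 74.4 CPM (log2 fold change -0.92 ± 0.095). The classes overlapped for Enho across sections, but it was lower within every section. Odf3b (-0.91), Wsb1 (-0.87), the long noncoding RNA AC169509.3 (-0.79), Irf5 (-0.76), Ak4 (-0.76), Foxq1 (-0.75) and Antxr2 (-0.68) followed, all below 60 CPM, and Antxr2 lost its call without section 3. Hamp and Hamp2, the hepcidin genes, were lower by -0.76 and -0.68, Igfbp2 by -0.74, the asparaginase gene Aspg by -0.74 and Mup21, a major urinary protein gene, by -0.73. Hamp lay at 1279, 692 and 740 CPM against 2048, 1157 and 1368 CPM, so its section values overlapped between classes. Hamp and Hamp2 are related genes and Mup21 belongs to a large family, and how reads were split within each was not tested.

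**Figure D2:**
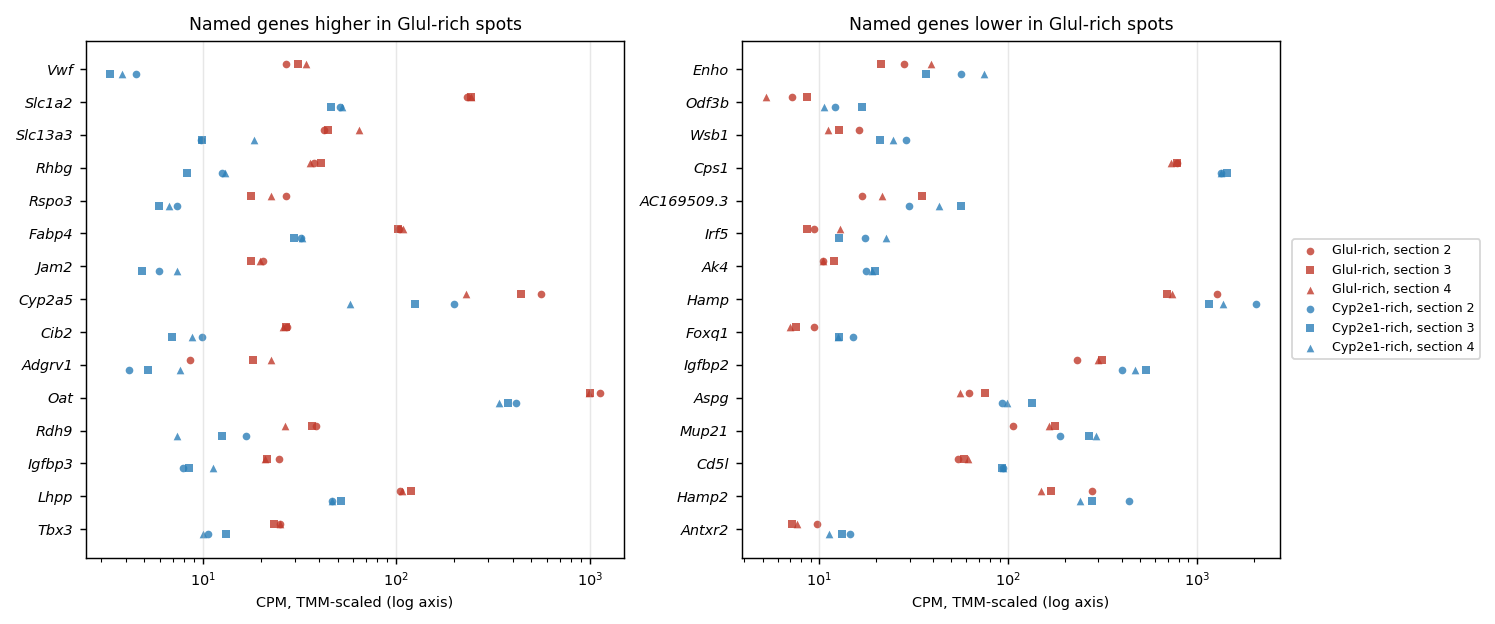
CPM (log axis) of the 15 named genes higher (left) and the 15 lower (right) in Glul-rich spots, with Glul-rich sums in red, Cyp2e1-rich sums in blue and a marker shape for each of the 3 sections. The red and blue values of genes such as Vwf (27.0 to 34.3 against 3.34 to 4.51) are far apart on the left, and the shifts on the right are smaller.

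Central enzymes did not share 1 pattern. Of 19 drug-metabolising cytochrome P450 and regulator genes tested, 10 were higher and 1 lower, with a median of 0.25. Over all genes tested 3.87% were higher and 4.42% lower. Cyp1a2 lay at 827, 812 and 813 CPM against 586, 565 and 538 CPM, a log2 fold change of 0.53 ± 0.027. Cyp2c37 was higher by 0.94 and Cyp2c38 by 0.63, whereas Cyp3a11 rose by 0.19 and Cyp2d9, Cyp2d10, Cyp2d22 and Cyp3a25 lay between -0.064 and -0.0015 and did not pass the test. Cyp2f2, a portal P450, was lower by -0.29. Of 19 glutathione transferase and conjugation genes tested, 6 were higher and 1 lower, with a median of 0.03, and the lower count was 2 without section 2 or 3 and 3 without section 4. Gstm3 and Gstm2 were higher by 1.03 and 0.85, and the more abundant Gstm1 and Gsta3 by 0.20 and 0.19. Mgst1, at 6931 to 7360 CPM in Glul-rich spots, gave -0.05.

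The Wnt list was chosen with earlier results of these data known. Beside it, the central genes that the study listed along its own spatial trajectories had a lower median change. Of these 22 genes 16 were higher, with a median of 0.18, and since the list was drawn up on sections of this series it is not independent evidence of direction. Lect2 was the most changed of them, at 303, 274 and 328 CPM against 190, 173 and 207 CPM (0.67 ± 0.038), and Mup11, Csad, Sult2a8, Elovl3, Cyp2d9 and Mgst1 did not pass the test. In the Wnt list, Gulo and Rgn, both of the pathway that makes vitamin C in mice, were higher by 0.58 and 0.36, and Rgn also stands in the study's list.

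Portal and midlobular genes were lower even against central spots. All 12 genes of the study's portal list were lower, with a median of -0.28, and the same reservation holds for that list. Of 18 periportal genes 17 were lower and none higher, with a median of -0.32; they share 4 genes with the urea cycle list. Pck1, the entry enzyme of gluconeogenesis, lay at 529, 635 and 677 CPM against 826, 934 and 1051 CPM (-0.61 ± 0.028), and Alb (albumin) was lower by -0.35. All 5 midlobular genes, among them Hamp and Igfbp2, were lower. Secreted plasma proteins were lower in 17 of 20 cases, beside 4.42% of all genes tested, with a median of -0.21. The 3 fibrinogen chains Fga, Fgb and Fgg lay between -0.40 and -0.37, whereas Apoe (0.02), Apob and Apoh did not pass the test.

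Genes of cholesterol synthesis were mostly lower, and those of other lipid pathways were divided. Of 18 cholesterol synthesis and uptake genes 15 were lower, beside 4.42% of all genes tested, and none higher, with a median of -0.28. Dhcr7, which encodes the reductase of the last step of synthesis, was lower by -0.43 and Sqle, the squalene epoxidase gene, by -0.39. Of 16 genes of lipogenesis, glycolysis and NADPH supply 8 were lower, among them the desaturase gene Scd1 (-0.50), Acly (-0.44) and Fasn (-0.35), and 8 did not pass the test, Srebf1 and Mlxipl among them. With DESeq2 and with separate UMIs 5 were lower. Of 16 genes of fatty acid oxidation and ketogenesis 4 were higher (Acadm, Acaa1b, Cyp4a10 and Cyp4a14) and 12 did not pass the test, with a median of 0.05. Of these, 9 were called higher under total-count scaling. Bile acid genes were split, with 2 of 17 higher and 6 lower. The uptake transporter gene Slco1b2 was higher by 0.26 and the export pump gene Abcb11 lower by -0.29, while Cyp7a1, the rate-limiting enzyme of bile acid synthesis, gave 0.25 and did not pass the test.

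**Figure D3:**
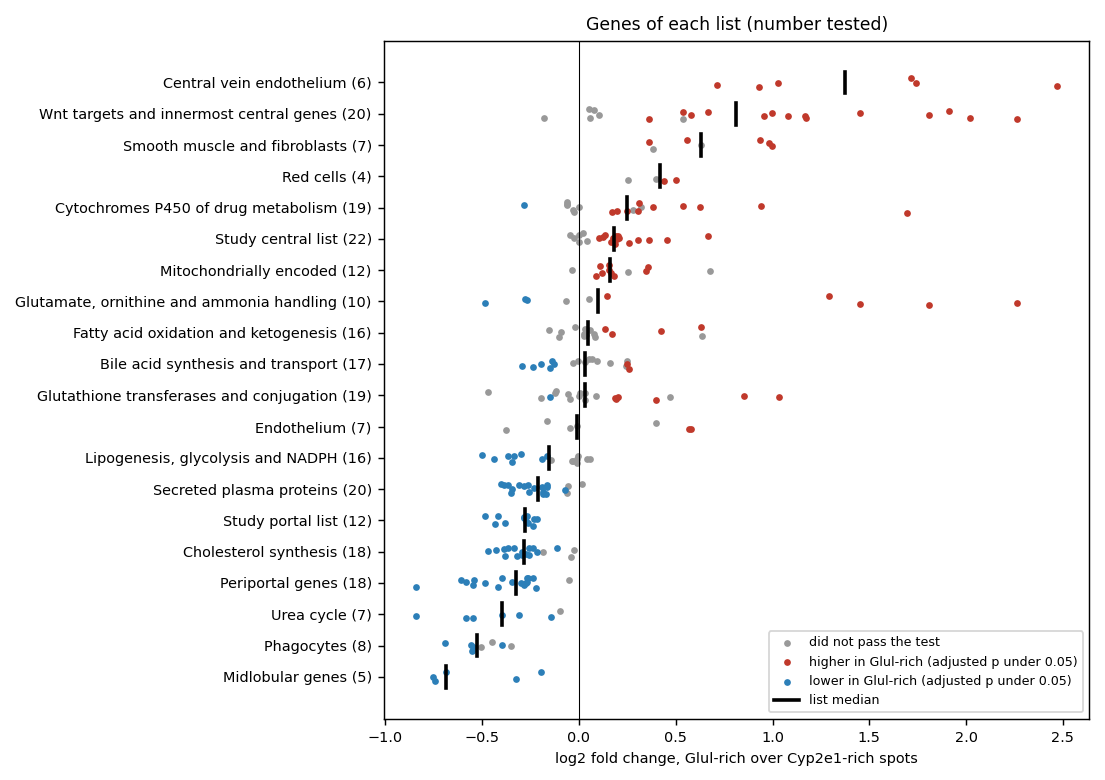
Log2 fold change of Glul-rich over Cyp2e1-rich spots for each tested gene of each list with at least 4 tested genes, with the number tested in brackets, genes called higher in red, called lower in blue, others in grey, and the list median as a black bar. Medians run from -0.68 (midlobular genes) to 1.37 (central vein endothelium).

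Levels were also followed by distance from the nearest Glul-rich spot. Spots were grouped by grid steps and summed per section, as a description without a test, and CPM in these profiles is scaled over the distance sums. Mean Slc1a2 over the 3 sections was 231 CPM in Glul-rich spots, 47.0 at 1 step, 19.9 at 2, 16.9 at 3 and 20.7 at 4 or more steps. Oat fell in the same way, from 1004 to 337, 152, 126.9 and 157 CPM. Most of the difference thus lay within the nearest ring of spots, and both genes were lower at 3 steps than at 4 or more in all 3 sections.

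Vwf was at 29.7 CPM in Glul-rich spots and at 3.88, 2.59, 4.11 and 3.90 CPM from 1 step outwards. Wnt9b lay at 4.29, 1.11, 0.188, 0.200 and 0.202 CPM, and Rspo3 at 21.7, 6.49, 3.67, 3.16 and 3.28 CPM. Endothelial genes of the vein thus left the profile within 1 or 2 steps. Enzymes of the wider central zone declined more gradually. Cyp1a2 lay at 789, 499, 299, 246 and 308 CPM, and Gulo at 621, 380, 226, 189 and 232 CPM. Notum was at 35.5 CPM in Glul-rich spots and still at 30.9 CPM 1 step away.

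Cps1 rose over the same distances, from 737 CPM in Glul-rich spots to 1346 at 1 step, 1633 at 2, 1655 at 3 and 1594 at 4 or more steps. Hamp differed mainly between the spots and their nearest ring, with 872 CPM at 0 steps and 1451, 1480.5, 1325 and 1454 CPM beyond. Clec4f, a Kupffer cell gene, lay at 69.4, 111, 135, 135 and 129 CPM.

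**Figure D4:**
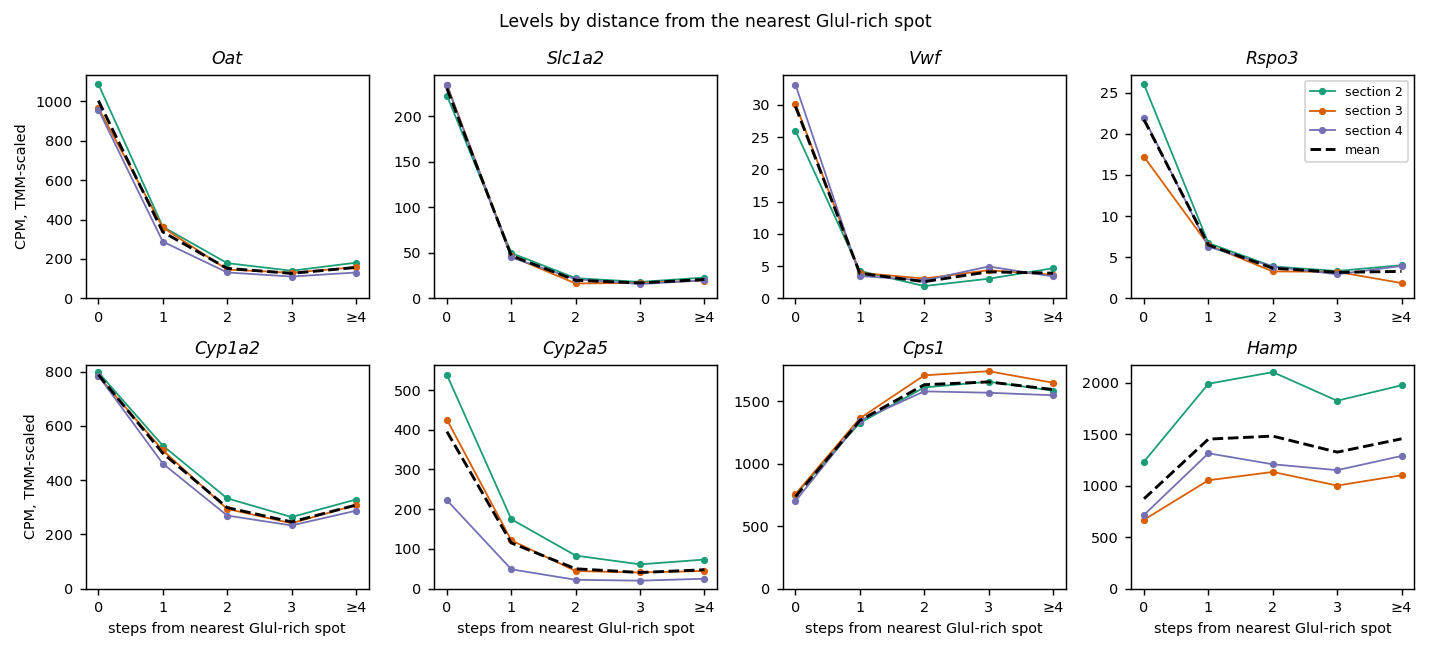
CPM (TMM-scaled, axes from 0) of 8 genes by grid steps from the nearest Glul-rich spot, with a line for each of the 3 uninjured sections and a dashed line for their mean. Oat, Slc1a2, Vwf and Rspo3 drop steeply at the first step, Cyp1a2 declines over 3 steps, and Cps1 rises.

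Glul-rich spots also varied among themselves. The 10th percentile, median and 90th percentile of Oat were 5.52, 10.9 and 16.4 UMIs per 10000 in section 2, 3.39, 9.04 and 14.2 in section 3, and 2.30, 7.87 and 15.8 in section 4. Of the equal number of spots with the most Oat in each section, 72.2%, 63.4% and 54.3% were Glul-rich, and of those with the most Slc1a2, 63.9%, 59.7% and 50.9%. A class chosen by either gene would thus share most but not all of its spots with the Glul-rich class. Since all 3 genes came from the same spots and the same depth, this is a description.

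Shares of spots with at least 1 UMI were compared after thinning each spot to 5000 UMIs, which left out 1, 3 and 36 Glul-rich spots. Slc1a2 was then found in 62.5%, 65.6% and 60.0% of Glul-rich spots, 24.4%, 19.3% and 21.6% of Cyp2e1-rich spots and 9.56%, 7.66% and 6.10% of the remaining spots. At full depth these shares were 92.8%, 85.8% and 69.0% of Glul-rich spots and 60.8%, 55.8% and 47.1% of Cyp2e1-rich spots. Vwf was found in 20.8%, 13.7% and 6.25% of thinned Glul-rich spots and in at most 2.43% of thinned spots of the other classes. At full depth 39.2%, 39.6% and 26.7% of Glul-rich spots held a Vwf UMI, so most were without one.

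Levels also moved with depth among the Glul-rich spots. Of the Glul-rich spots, 3, 30 and 52 held fewer than 10000 UMIs in sections 2, 3 and 4. Per 1000000 unscaled UMIs, Oat was 674, 662 and 709 in these shallow spots and 1154, 1054 and 1058 in deeper Glul-rich spots, and the value of the 3 shallow spots of section 2 rests on 15 Oat UMIs. Shallow Glul-rich spots thus had less Oat in every section, though more than the scaled 339 to 418 CPM of Cyp2e1-rich spots. When classes were formed from spots of at least 10000 UMIs alone, 825 genes were called, of which 740 were among the 905 with the same direction. Patch size showed no common order, with unscaled Oat of 1094, 1085 and 1038 per 1000000 in single spots and 1257, 893 and 913 in patches of 3 or more spots.

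The top 5% rule was not applied to the injured sections. The mean Glul threshold of the uninjured sections, 8.38 UMIs per 10000, was applied there instead, as a description. It was reached by 0 of the 1490 to 3466 passing spots in each of the 8 APAP sections. A count of 0 allows a share of up to 0.0866% to 0.201% per section, for counting error only, and the share in the uninjured sections is fixed near 5% by the rule. Levels of other genes in whole sections were therefore compared, as a description, on a TMM scale of their own. In whole sections, fewer cells of a type and less RNA per cell cannot be told apart, nor can mouse and time.

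Whole-section Slc1a2 lay at 40.1 to 44.8 CPM in uninjured sections, 0.151 to 0.351 at 24 h, 0.457 to 0.522 at 36 h and 0.503 to 1.03 at 48 h. Oat lay at 233 to 307 CPM and then at 24.6 to 30.1, 26.2 to 33.4 and 30.2 to 36.6 CPM. Neither gene overlapped between uninjured and injured sections, nor did Rhbg, Cib2, Adgrv1 or Lhpp. Of the 422 genes called higher in Glul-rich spots, all 8 injured sections lay below all 3 uninjured sections for 134 (31.8%), beside 18.3% of all genes tested, and above them for 43 (10.2%), beside 12.1%. The genes called lower in Glul-rich spots were also often below, 204 of 483 (42.2%), and 24 were above (4.97%).

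Of the 15 named higher genes, all 8 injured sections lay below all uninjured sections for 6 and above them for 1. Of the 15 named lower genes, they lay below for 3 and above for 1. Over all genes tested, the shares were 18.3% below and 12.1% above. Cyp2a5 lay at 43.4 to 141 CPM in uninjured sections, 420 to 474 at 24 h, 81.2 to 213 at 36 h and 26.3 to 70.8 at 48 h, so it was highest at 24 h. Fabp4 lay at 33.4 to 35.3 CPM in uninjured sections and at 37.0 to 128 CPM in injured sections, above in all 8. Igfbp3 was at 16.7 to 18.02 CPM in uninjured sections, 1.18 to 2.17 at 24 h and 21.2 to 45.0 at 48 h. Rspo3 was at 5.19 to 6.67 CPM, then at 2.26 to 2.81 at 24 h and 6.36 to 8.89 at 48 h, while Notum and Axin2 reached the uninjured range at 48 h with 18.4 to 33.9 and 2.20 to 3.20 CPM. On the lower side, Cps1 was at 1850 to 1975 CPM in uninjured sections, 609 to 660 at 24 h and 1543 to 2411 at 48 h.

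**Figure D5:**
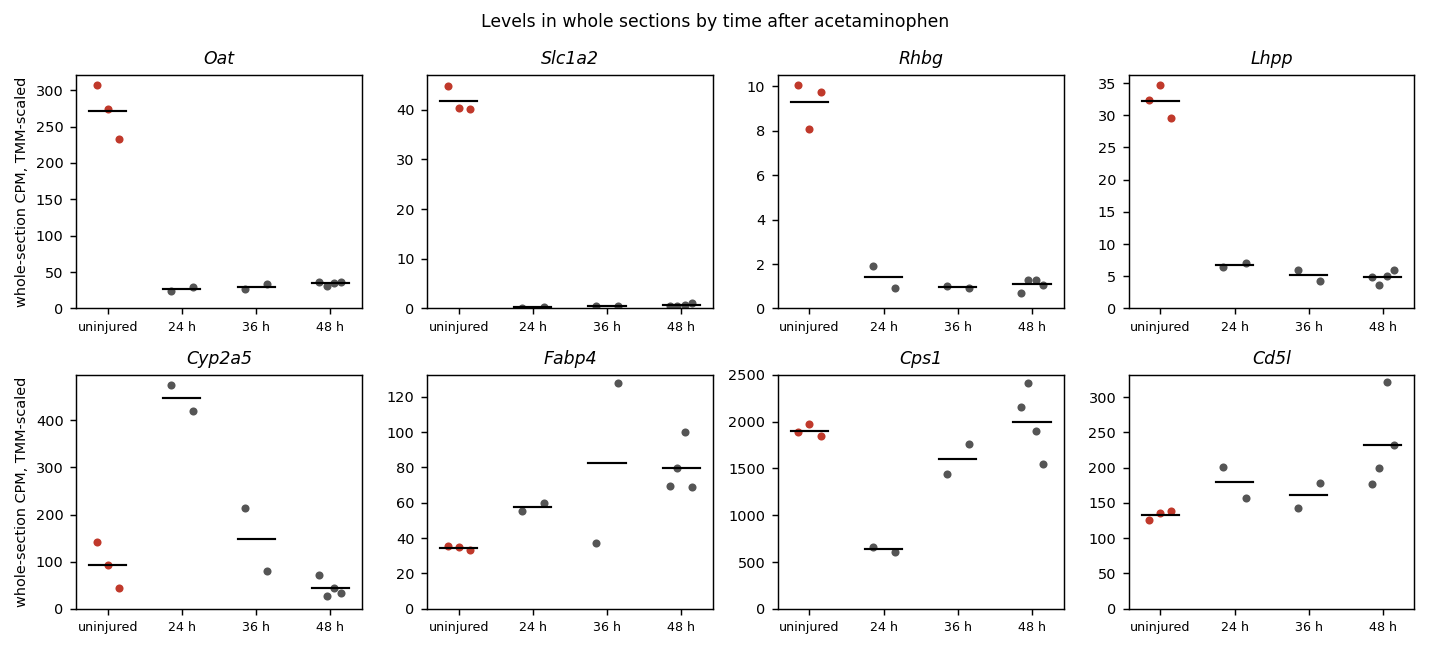
Whole-section CPM (TMM-scaled, axes from 0) of 8 genes by time, with uninjured sections in red, injured sections in grey and bars at the group means (3, 2, 2 and 4 sections). Oat, Slc1a2, Rhbg and Lhpp are lower and Fabp4 and Cd5l higher in every injured section, while Cyp2a5 is highest and Cps1 lowest at 24 h.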

How the data were processed

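Visium libraries of 11 mouse liver sections were used, with groups and times taken from the labels. The deposited matrices hold raw UMI counts per gene and spot; the authors aligned reads to mm10 (Ensembl gene models) with Space Ranger 1.0.0, counted UMIs per gene and did not normalise them. Spots under the authors' tissue mask were kept where they held at least 800 genes and no more than 20% of mitochondrial UMIs, after the study's methods. Counts were summed per section and class (6 sums, 1692213 to 18993001 UMIs), filtered with filterByExpr, scaled by TMM and tested with edgeR 4.0.16 (R 4.3.3) by a two-sided quasi-likelihood test with robust dispersion and section as a block, since both classes come from the same section. This pairing comes from the sampling itself. Benjamini-Hochberg adjustment covered 10916 genes, and the threshold was 0.05. Named genes were called genes with a mean of at least 10 CPM and the same direction in all 3 sections, the 15 largest changes each way. Members of 23 gene lists were named besides. The members and lists were chosen with earlier results of these data known. Alternatives comprised DESeq2 1.42.0, other scalings, filters, class sizes, separate or thinned UMIs and left-out sections. The main test was also run on simulated counts drawn independently with the spread fitted here. That run did not imitate the choice of spots by Glul, so it cannot show how the test behaves under that choice. Gene positions came from GENCODE (GRCm38). The replicate sections differed by more than counting noise, with a chi-square per gene of 3.36 to 6.51 between Glul-rich sums. The positions of spots on the grid serve only for neighbours and distances. All sections share the same 4992 spot barcodes by design of the slide. A few listed genes are not reported here by name.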

Additional observations from a re-analysis of the deposited data

Results flagged for a closer look

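Mup21, a major urinary protein gene lower in Glul-rich spots, lay at 208.8 CPM in section D at 48 h, far from the other 3 sections of that time point at 36.7 to 56.1 CPM. The gap to the nearest section was 0.887 of the range of the group. The 30 named genes were examined in this way in the 4 sections at 48 h, and chance alone sets apart about 1 in 20 such groups.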

How the results depend on the processing

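No named gene changed direction under any alternative run. The named genes were picked for large changes with the same direction in all 3 sections, so the rule left little room for a reversal. The count of 905 called genes fell to 342 with DESeq2 (154 higher, 188 lower), to 116 without the replicate block (87 higher, 29 lower), which ignores that both classes share a section, and to 466 with classes and sums from separate UMIs (197 higher, 269 lower), where each sum holds fewer UMIs. All 335, 115 and 424 genes shared with the 905 kept their sign, where DESeq2 and the fit without the block used the same sums. Without the block, 15 of the 30 named genes lost their call, with DESeq2 Ak4, Antxr2, Foxq1, Irf5 and Odf3b did, with separate UMIs Ak4, Antxr2, Foxq1 and Odf3b, and with thinned spots Antxr2 and Cyp2a5; Antxr2, Mup21, Irf5 or Foxq1 was lost singly under 6 others. Without the block, lower calls fell from 17 to 6 of 18 periportal genes, from 15 to 1 of 18 cholesterol genes and from 8 to 0 of 16 lipogenesis genes. Total-count scaling gave 688 higher and 308 lower. The unfiltered table gave 367 higher and 632 lower. Leaving out a section gave 689 to 728 calls (313 to 341 higher, 352 to 387 lower), and each alternative not named so far gave 735 to 970. Mup11 reversed with the top 20% by Cyp2e1 (-0.0764), Hbb-bt with DESeq2 (-0.21), mt-Nd4 and mt-Atp6 with the top 40% by Cyp2e1 (-0.000546 and -0.0197), and mt-Cytb with the top 10% by Glul (0.0857) and the top 20% by Cyp2e1 (0.0781); the cause was not tested. With a section left out, Hba-a1 ran from -0.15 to 0.49, Hbb-bs from -0.55 to 0.36 and Hbb-bt from -0.79 to 0.55, the lowest each time without section 3. Selecting Glul-rich spots also in the top 30% by Cyp2e1 (866 calls) and spots of at least 10000 UMIs (825 calls) were chosen after seeing the data. Mitochondrial genes were called higher in 9 of 12 cases and in 0 with classes from thinned spots. The small Glul-rich sums limit genes of low level.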
